A study of Mus musculus with 6 samples.

Results

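Described here are 49 genes of the interferon system, made up of interferon-stimulated genes, RNA sensors, interferon receptors and interferon regulatory factors, in cultured mouse heart muscle cells after knockdown of Gdf11. They were chosen by name from the 54532 genes of the deposited expression table, and each name matched exactly 1 row. All 49 had a mean of at least 0.5 FPKM (fragments per kilobase of gene length, scaled to library depth) over the 6 libraries and so entered the test. Oas3 passed that filter only through the knockdown libraries, so it gives no independent support. The cells were primary ventricular cardiomyocytes of C57BL/6J mice aged 1 day. In 3 libraries the cells had received a short hairpin RNA against Gdf11 (shGDF11), and in 3 libraries a control hairpin, called sh-nc in the sample labels and sh-Vector in the protocol. Both hairpins were delivered as packaged vectors at a multiplicity of infection of 200, and RNA was taken after 48 h, so every library comes from vector-exposed cells and no library of untreated cells was used here. The labels name neither the kind of vector nor whether the numbers 1 to 3 stand for cultures or for hairpins, so the p-values describe the spread between these libraries, which may be technical.

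Interferons are secreted antiviral signals. Type I interferons bind the receptor chains IFNAR1 and IFNAR2, and the kinases JAK1 and TYK2 then activate STAT proteins such as STAT2, which joins IRF9 in a complex that binds a DNA element, the interferon-stimulated response element, in front of antiviral genes. RIG-I (Ddx58) and MDA5 (Ifih1) detect foreign RNA in the cytosol and signal through MAVS to IRF3 and IRF7, which switch on interferon genes. Cardiac myocytes are known to mount this response in viral myocarditis.

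Promoter sequences are shown for the members called higher with the smallest p that carry the letters of the response element. Their shared direction follows from that choice. The letters searched were GAAA, any 2 bases and GAAA again, on both strands, so that a match on the other strand reads TTTC, any 2 bases and TTTC. The windows ran from 250 bases before to 50 bases after each RefSeq start, on GRCm38.p6. Capitals mark the matches, and each stretch is given 5′ to 3′ on the strand of the gene.
Stat2, chr10:128270248-128270305, plus strand: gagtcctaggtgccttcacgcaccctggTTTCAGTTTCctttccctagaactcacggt
Ifit1, chr19:34640745-34640833, plus strand: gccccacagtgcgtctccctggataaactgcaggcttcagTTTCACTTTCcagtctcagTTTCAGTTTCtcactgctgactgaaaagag
Rsad2, chr12:26456543-26456612, minus strand: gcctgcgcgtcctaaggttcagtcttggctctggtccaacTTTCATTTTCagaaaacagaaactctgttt
Ifit3, chr19:34583333-34583436, plus strand: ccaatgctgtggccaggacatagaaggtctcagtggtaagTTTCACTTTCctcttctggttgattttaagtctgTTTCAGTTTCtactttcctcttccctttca
Eif2ak2, chr17:78882545-78882554, minus strand, past the start and so given as the match alone: GAAAACGAAA

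For contrast, and chosen after their values were seen, the promoters of Isg15 and Oas1a carry the same letters although neither gene was called.
Isg15, chr4:156200855-156200936, minus strand: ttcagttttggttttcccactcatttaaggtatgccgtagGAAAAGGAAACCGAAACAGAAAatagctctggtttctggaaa
Oas1a, chr5:120907526-120907585, minus strand: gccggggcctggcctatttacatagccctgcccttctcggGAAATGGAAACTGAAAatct

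RefSeq promoter windows were matched by symbol for 39 of the 49 members. Of these, 15 held the element's letters in at least 1 window. By window the share was 15 of 48 (31.2%), against 1131 of 32851 windows of all promoters (3.44%) and 2.99% of the windows of tested genes. Among members called higher, 8 of 16 matched genes held the letters, Oas3 among them, and among the others 7 of 23. By gene the share was 3.99% over all promoters and 3.63% over those of tested genes. Some called members, such as Irf7, Oasl2, Ifi44 and Ifit2, had no match in this window. The letters TTCNNNGAA, which read the same on both strands and are the core of the gamma-activated sequence, were in 14 of 48 member windows (29.2%) and in 8.30% of all windows. By gene they were in 2 of the 16 matched members called higher (12.5%) and in 12 of the 23 others (52.2%). The share by gene was 9.55% over all promoters and 8.21% over those of tested genes. In members they overlapped a response element match only in Bst2. A match of letters is a description of the sequence, not a binding site.

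**Figure D1:**
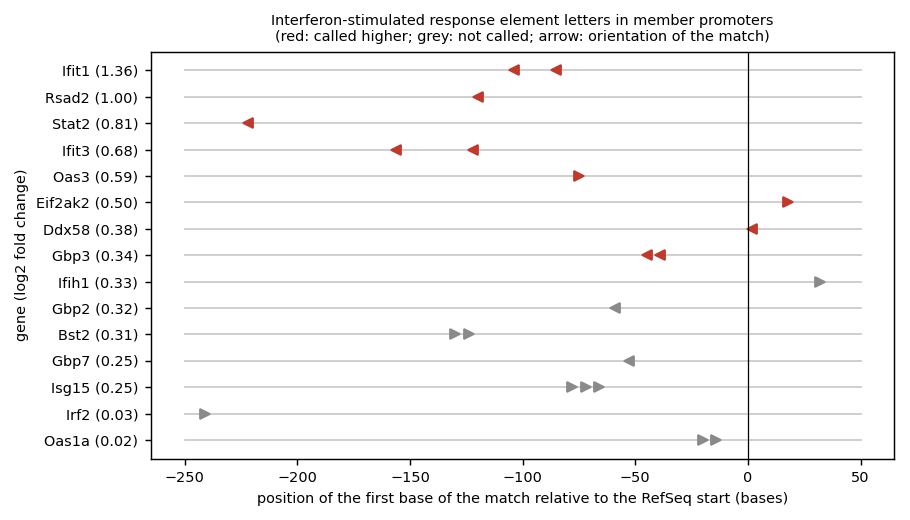
Position of response element matches in the promoters of the 15 members that hold them, in bases from the RefSeq start (x axis), with 1 line per gene in order of its log2 fold change. Red arrows are matches in members called higher and grey arrows in members not called. Matches in called members lie from 222 bases before the start (Stat2) to just past it (Ddx58, Eif2ak2), and Isg15 has 3 overlapping matches.

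In the cells with less Gdf11, 22 of the 49 genes rose and 1 fell. In mean FPKM, 4 of them rose at least 2-fold, namely Ifit1 (2.59-fold), Oas3 (2.32-fold), Oas2 (2.09-fold) and Rsad2 (2.08-fold). Oas3 is in these counts although it passed the filter only through the knockdown libraries. At a mean of at least 1 FPKM, where Oas3 was not tested, 21 of the 22 were still called higher. The receptor chains for type I interferon, the sensor Tlr3 and the adaptor Mavs were not called. Calls rest on limma's moderated test of log2(FPKM + 0.5) over all 15418 genes tested, with a threshold of 0.05 after Benjamini-Hochberg adjustment, and "rose" and "fell" are used only for called genes. Over all tested genes 14.4% were called higher and 13.1% lower. The members' median log2 fold change (shGDF11 minus control) was 0.31, against 0.01 over all tested genes. In 33 members every shGDF11 library lay above every control library, and in 3 every one lay below. Over all tested genes the shares were 23.7% above, 22.2% below and 45.8% in either direction. A called rise of at least 1 on the log2 scale was seen in Ifit1 alone among the members and in 1.5% of all tested genes. Of the called genes of the whole table, 52.4% were higher, or 66.3% after each library was rescaled to a common sum (TPM), where 24 members rose and 0 fell against 16.9% and 8.59% of all tested genes. The rise was called in every alternative that tested the gene for 14 members, namely Stat2, Ifit1, Irf7, Oasl2, Rsad2, Ifit3, Ifi27, Parp14, Ifi44, Mx2, Usp18, Eif2ak2, Ifit2 and Oas2.

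**Figure D2:**
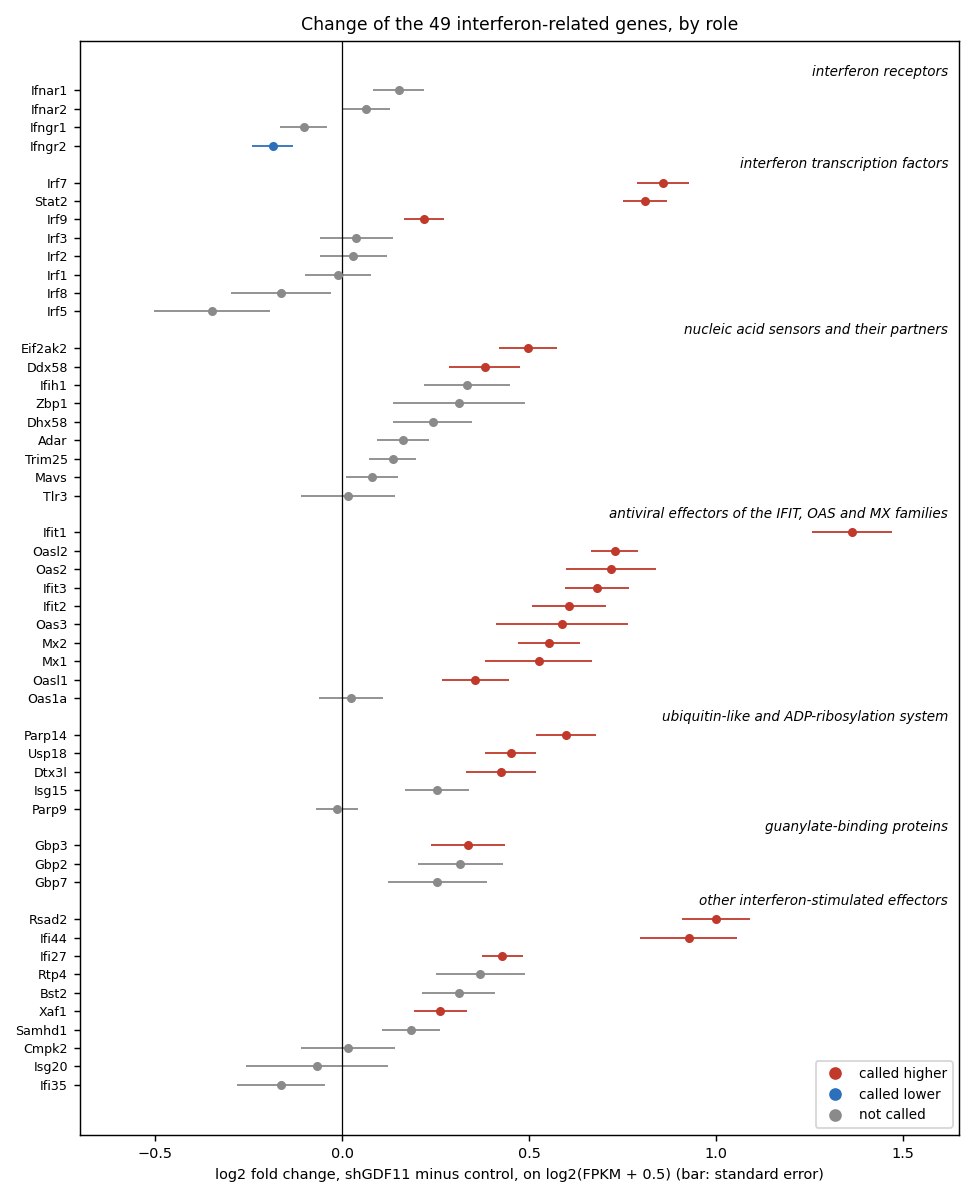
Log2 fold change of each of the 49 genes (x axis, shGDF11 minus control on log2(FPKM + 0.5), bars are standard errors), grouped by role. Red points were called higher, the blue point (Ifngr2) lower, and grey points were not called; 9 of the 10 IFIT, OAS and MX genes are red, from 0.36 (Oasl1) to 1.36 (Ifit1).

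The libraries held 15267083 to 16152910 reads in the genes of the table, as recovered from the FPKM values. Gdf11 (chromosome 10, 128882295 to 128891718, minus strand, GRCm38) was at 2.76, 2.30 and 2.31 FPKM in the controls and 0.614, 0.601 and 0.778 FPKM in the shGDF11 libraries, or 27.1% of control (limma adjusted p = 0.00079). All 8 cardiomyocyte markers listed, among them Tnnt2, Myh6 and Actc1, were measured, at means of 34.3 to 3477 FPKM. Of these, 2 rose and 4 fell, against 14.4% and 13.1% of all tested genes. The share of reads in ribosomal RNA genes was 0.298% to 0.319% in control and 0.47% to 0.502% in shGDF11 libraries, and its part in the results was not tested. Control replicate 1 stood apart, with 4.81% of reads in mitochondrial genes against 5.60% to 6.51% in the other libraries and 40996 FPKM of the small RNA gene Gm23935 against at most 9686 FPKM. Without it, 20 members rose, 17 of them among the 22.

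Of the 4 receptor genes, 0 rose and 1 fell, against 14.4% and 13.1% of all tested genes. Ifnar1, a chain of the type I interferon receptor, was at 9.85, 10.9 and 10.1 FPKM in control libraries 1 to 3 and at 12.01, 10.91 and 11.4 FPKM in shGDF11 libraries 1 to 3. The groups did not overlap, but by a narrow margin, and the gene was not called (limma log2 fold change 0.15 ± 0.0681 SE, adjusted p = 0.14). Ifnar2, the other chain, was at 10.1, 9.89 and 10.02 FPKM and at 10.9, 10.7 and 9.83 FPKM, with overlapping groups (limma adjusted p = 0.50). For interferon gamma, Ifngr1, the ligand-binding chain, was at 10.6, 11.4 and 10.9 FPKM in control and 10.1, 9.78 and 10.5 FPKM in shGDF11 libraries and was not called (limma adjusted p = 0.26). Ifngr2, the signalling chain and the most abundant receptor gene, fell slightly. It was at 66.0, 68.4 and 71.3 FPKM in control and 61.6, 59.3 and 59.6 FPKM in shGDF11 libraries, with no overlap (limma log2 fold change -0.19 ± 0.055 SE, adjusted p = 0.044). That call was lost in 9 of 18 alternatives, with limma adjusted p = 0.43 after rescaling to TPM and a range over the alternatives of 0.016 to 0.43.

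Of the 8 transcription factors, Stat2, Irf7 and Irf9 rose (37.5%, against 14.4% of all tested genes) and 5 were not called. Stat2, the type I interferon STAT, was at 15.9, 17.0 and 17.0 FPKM in control and at 28.5, 29.6 and 30.5 FPKM in shGDF11 libraries. It had the smallest p of all members (limma log2 fold change 0.81 ± 0.059 SE, adjusted p = 0.00036). Irf7, the factor that amplifies interferon production, was at 15.1, 13.3 and 14.9 FPKM in control and 25.6, 26.5 and 27.6 FPKM in shGDF11 libraries (limma log2 fold change 0.86 ± 0.0693 SE, adjusted p = 0.00051). For both genes the lowest shGDF11 library was far above the highest control. Irf9, the DNA-binding partner of STAT2, was at 14.2 FPKM in each control library and at 16.2, 17.0 and 16.8 FPKM in shGDF11 libraries. Its rise was small (limma log2 fold change 0.22 ± 0.0535 SE, adjusted p = 0.023) and was not called in 5 of 18 alternatives, which gave 0.011 to 0.10.

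The other 5 factors did not pass the test. Irf3, which sensors activate in the cytosol, was at 15.0, 11.8 and 12.9 FPKM in control and 13.2, 13.0 and 14.5 FPKM in shGDF11 libraries, with overlapping groups (limma adjusted p = 0.80). Irf1, a factor induced by interferon gamma, was at 5.92, 4.84 and 5.07 FPKM and at 5.04, 5.30 and 5.32 FPKM (limma adjusted p = 0.94). Irf2, a relative of Irf1 that can oppose it, had means of 3.44 and 3.53 FPKM. The factors of immune cells were low: Irf8 had means of 1.14 and 0.955 FPKM, and Irf5 1.08 and 0.732 FPKM (limma adjusted p = 0.40 and 0.14). Irf5 was below every control in each shGDF11 library, but it rested on only 33 to 61 reads per library, and 14.2% of its exon bases lie opposite those of Tnpo3.

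Among the 9 sensors and their partners, Eif2ak2 and Ddx58 rose (22.2%, against 14.4% of all tested genes) and 7 were not called. All 9 had a positive log2 fold change, down to 0.02 in Tlr3. Over all tested genes it was positive in 7823 of 15418. Eif2ak2 encodes PKR, a kinase that stops translation on binding RNA duplexes. It was at 12.5, 13.9 and 12.2 FPKM in control and 17.2, 19.6 and 18.2 FPKM in shGDF11 libraries (limma log2 fold change 0.50 ± 0.0783 SE, adjusted p = 0.0047). Ddx58 (RIG-I) was at 15.4, 18.9 and 19.3 FPKM in control and 22.3, 23.9 and 23.7 FPKM in shGDF11 libraries (limma log2 fold change 0.38 ± 0.0941 SE, adjusted p = 0.024). Control replicate 1 was the lowest for Ddx58, and the groups did not overlap. The call was lost without any 1 shGDF11 library and with no filter on low values, up to a limma adjusted p of 0.086 from a lowest value of 0.0040.

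Other cytosolic sensors lay above control without passing. Ifih1 (MDA5) was at 5.56, 7.07 and 7.68 FPKM in control and 8.46, 8.32 and 8.996 FPKM in shGDF11 libraries (limma adjusted p = 0.072). Dhx58 (LGP2), a regulator of RIG-I and MDA5, was at 3.66, 3.79 and 2.96 FPKM and at 3.94, 4.46 and 4.13 FPKM (limma adjusted p = 0.13). Adar, which edits adenosines in RNA duplexes and so keeps them from the sensors, was at 7.76, 7.60 and 6.87 FPKM and at 8.13, 8.32 and 8.57 FPKM (limma adjusted p = 0.13). In these genes every shGDF11 library was above every control library, as in 23.7% of all tested genes. Of the exon bases of Adar, 16.8% lie opposite those of Chrnb2. Mavs, the mitochondrial adaptor of RIG-I and MDA5, was at 13.2, 13.2 and 13.9 FPKM in control and 14.8, 14.8 and 13.1 FPKM in shGDF11 libraries, with overlap (limma adjusted p = 0.44). Tlr3, the endosomal sensor of RNA duplexes, was at 1.92, 2.70 and 2.55 FPKM and at 2.27, 2.51 and 2.43 FPKM (limma adjusted p = 0.94). The remaining members of this role were Trim25, a ubiquitin ligase that activates RIG-I, with means of 16.9 and 18.6 FPKM, and Zbp1, a sensor of Z-form nucleic acids, with means of 2.08 and 2.66 FPKM (limma adjusted p = 0.15 and 0.23).

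Of the 10 antiviral IFIT, OAS and MX genes, 9 rose, Oas3 among them, and 0 fell, against 14.4% and 13.1% of all tested genes. Ifit1, whose protein binds viral RNA lacking cap methylation, was at 19.8, 24.1 and 26.1 FPKM in control and 60.2, 64.5 and 56.8 FPKM in shGDF11 libraries. It had the largest change of all members (limma log2 fold change 1.36 ± 0.107 SE, adjusted p = 0.00045). Ifit2 of the same gene cluster on chromosome 19, an RNA-binding relative, was at 6.42, 8.33 and 6.79 FPKM and at 10.99, 10.98 and 11.4 FPKM (limma log2 fold change 0.61 ± 0.0984 SE, adjusted p = 0.0053). Ifit3, which stabilises IFIT complexes, was at 13.7, 12.03 and 11.1 FPKM and at 20.6, 19.3 and 19.999 FPKM (limma log2 fold change 0.68 ± 0.0847 SE, adjusted p = 0.0019). The groups were apart for each of the IFIT genes. Of the 50-base words in Ifit3 transcripts, 51.2% also occur in Ifit3b, so the level of Ifit3 alone is uncertain, and Ifit3b itself rose from 4.02 to 5.96 FPKM (limma adjusted p = 0.0072).

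**Figure D3:**
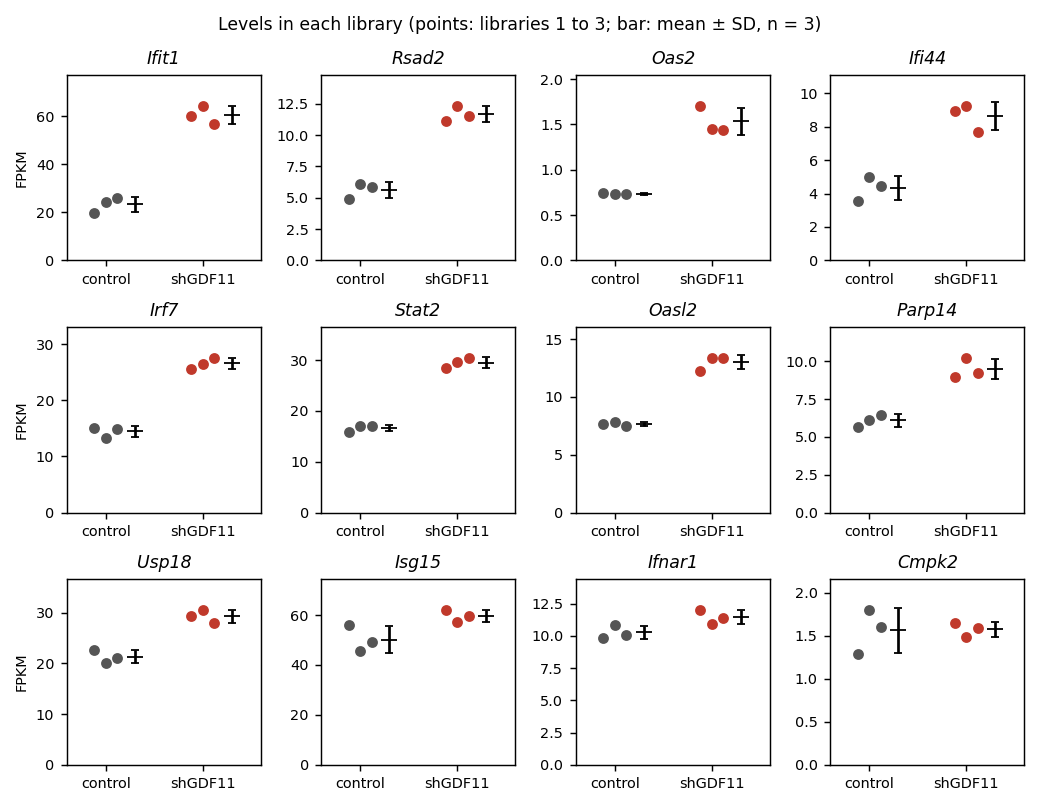
FPKM (y axis, from 0) of 12 members in each library, with control libraries in grey, shGDF11 libraries in red, and the mean ± SD of 3 libraries as a black bar beside them. In Ifit1, Rsad2, Oas2, Ifi44, Irf7, Stat2, Oasl2, Parp14 and Usp18 the groups are apart, in Isg15 and Ifnar1 they nearly touch, and in Cmpk2 they overlap.

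The OAS proteins make short adenylate chains that activate an RNA-degrading enzyme, RNase L, and the OASL proteins are their relatives. Oasl2 was at 7.64, 7.81 and 7.502 FPKM in control and 12.3, 13.4 and 13.4 FPKM in shGDF11 libraries (limma log2 fold change 0.73 ± 0.0629 SE, adjusted p = 0.00062). Oas2 was low, at 0.743, 0.728 and 0.730 FPKM in control, and reached 1.71, 1.45 and 1.43 FPKM in shGDF11 libraries (limma adjusted p = 0.0060). Because the added 0.5 FPKM dampens low genes, its log2 fold change was 0.72 on the test's scale and 1.04 by limma voom on recovered reads (52 to 125 reads per library). Oasl1 was at 4.44, 4.95 and 4.42 FPKM and at 6.65, 5.95 and 5.51 FPKM (limma adjusted p = 0.026). Oas3, the least abundant member, had means of 0.302 and 0.703 FPKM from 23 to 89 reads (limma adjusted p = 0.046). Both were called less stably, Oasl1 losing the call in 6 of 18 alternatives (limma adjusted p up to 0.082, from 0.020) and Oas3 in 6 of 13 (up to 0.11, from 0.0024). Oas1a was the exception of the role, at 5.83 ± 0.549 and 5.92 ± 0.292 FPKM (mean ± SD, n = 3 in each group; limma adjusted p = 0.87). Of its 50-base transcript words, 57.6% also occur in another gene, mainly Oas1g, so reads may be split between them.

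MX proteins are GTPases that block virus replication, and the Mx1 allele of common laboratory strains such as C57BL/6 is known to lack coding exons. Mx2 is listed with the deposited values as a polymorphic pseudogene, so its transcript may not stand for a working protein either. Mx2 was at 2.80, 3.09 and 3.21 FPKM in control and 4.82, 4.39 and 4.82 FPKM in shGDF11 libraries (limma log2 fold change 0.55 ± 0.082 SE, adjusted p = 0.0037). Mx1 was at 1.06, 1.41 and 1.46 FPKM and at 2.49, 1.95 and 1.87 FPKM (limma log2 fold change 0.52 ± 0.144 SE, adjusted p = 0.035). Both genes stood apart between the groups, but the Mx1 call was lost in 7 of 17 alternatives (limma adjusted p up to 0.11, from 0.015).

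In the ubiquitin-like and ADP-ribosylation role, 3 of 5 genes rose, against 14.4% of all tested genes. ISG15 is a ubiquitin-like protein that is joined to other proteins, and USP18 removes it and also restrains signalling at IFNAR2. Usp18 was at 22.7, 20.1 and 21.0 FPKM in control and 29.4, 30.5 and 27.9 FPKM in shGDF11 libraries (limma log2 fold change 0.45 ± 0.0681 SE, adjusted p = 0.0040). Isg15 was at 56.1, 45.5 and 49.1 FPKM and at 62.1, 57.3 and 59.8 FPKM. Its highest control library lay just under the lowest shGDF11 library, and it was not called (limma adjusted p = 0.067), although it was after rescaling to TPM (0.011, with a range over the alternatives of 0.0097 to 0.19). Parp14, an ADP-ribosyltransferase, was at 5.66, 6.14 and 6.46 FPKM and at 8.95, 10.2 and 9.25 FPKM (limma log2 fold change 0.60 ± 0.0802 SE, adjusted p = 0.0025).

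Dtx3l and Parp9 encode the subunits of a ubiquitin ligase complex and lie head to head on chromosome 16. Dtx3l was at 11.9, 14.1 and 15.2 FPKM in control and 17.7, 19.0 and 18.9 FPKM in shGDF11 libraries (limma adjusted p = 0.016). The Dtx3l call was lost without shGDF11 replicate 2 or 3 (limma adjusted p up to 0.064, from 0.0022 over the alternatives). Parp9 was at 20.8, 21.8 and 21.1 FPKM and at 20.3, 21.9 and 20.9 FPKM (limma adjusted p = 0.88). Ratios of neighbouring genes were taken within each library on FPKM + 0.5, which dampens ratios of low genes. On that scale the log2 ratio of Dtx3l to Parp9 was -0.62 ± 0.161 in control and -0.18 ± 0.0313 in shGDF11 libraries (mean ± SD, n = 3 in each group). The ratios did not overlap, which gave an exact two-sided permutation p of 0.1, the smallest that 3 against 3 allows. On opposite strands, the exons of Dtx3l cover 9.401% of the exon bases of Parp9.

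Rsad2 and Cmpk2 are also neighbours. Rsad2 encodes viperin, which makes a chain-terminating nucleotide from CTP, and Cmpk2 a mitochondrial nucleotide kinase. They lie 12751 bases apart on chromosome 12 on opposite strands. Rsad2 was at 4.90, 6.06 and 5.84 FPKM in control and 11.1, 12.4 and 11.5 FPKM in shGDF11 libraries (limma log2 fold change 1.00 ± 0.0917 SE, adjusted p = 0.00077). Cmpk2 was at 1.28, 1.801 and 1.61 FPKM and at 1.652, 1.48 and 1.59 FPKM (limma adjusted p = 0.94, 84 to 125 reads). The log2 ratio of Rsad2 to Cmpk2 was 1.57 ± 0.0482 in control and 2.55 ± 0.135 in shGDF11 libraries (mean ± SD, n = 3 in each group), again without overlap (exact two-sided permutation p = 0.1, which passes no threshold). On the same scale, the log2 ratio of Mx1 to Mx2 was -0.97 in control and -0.998 in shGDF11 libraries (exact permutation p = 0.9). These were 3 of 5 pairs of nearby genes compared after the values were seen, and the Benjamini-Hochberg adjusted value was 0.125 for each of the pairs that did not overlap, which also included Ifit1 with Ifit2 and Ifnar1 with Ifngr2.

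Of the 10 other effectors, Rsad2 and Cmpk2 included, 4 rose and 0 fell, against 14.4% and 13.1% of all tested genes. Ifi44, a cytosolic antiviral protein, was at 3.54, 4.99 and 4.46 FPKM in control and 8.95, 9.28 and 7.68 FPKM in shGDF11 libraries (limma log2 fold change 0.93 ± 0.129 SE, adjusted p = 0.0029). Ifi27, a small membrane protein gene, was at 83.2, 84.2 and 81.4 FPKM and at 117, 109 and 109.7 FPKM (limma log2 fold change 0.43 ± 0.0549 SE, adjusted p = 0.0021). Xaf1, which promotes apoptosis, was at 6.98, 7.28 and 7.18 FPKM and at 8.58, 9.32 and 8.13 FPKM (limma adjusted p = 0.033). The Xaf1 call was the weakest of these and was lost in 8 of 18 alternatives (limma adjusted p up to 0.12, from 0.024). Bst2 (tetherin, which holds budding viruses at the cell surface) was the most abundant member, at 129 ± 10.8 and 161 ± 16.4 FPKM (mean ± SD, n = 3 in each group), and just missed the threshold (limma adjusted p = 0.052). It passed in 9 of 18 alternatives, which gave 0.014 to 0.16. Rtp4 had means of 13.4 and 17.4 FPKM (limma adjusted p = 0.060), and the nucleotide hydrolase gene Samhd1 5.11 and 5.86 FPKM. The nuclease gene Isg20 had means of 2.60 and 2.44 FPKM and Ifi35 19.6 and 17.3 FPKM, both with overlapping groups, and 16.8% of the exon bases of Ifi35 lie opposite another gene.

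Guanylate-binding proteins are GTPases best known as targets of interferon gamma. Of the 3 here, 1 rose, against 14.4% of all tested genes. Gbp3 had means of 9.42 and 11.97 FPKM (limma adjusted p = 0.044), a call lost in 8 of 18 alternatives, which gave 0.0094 to 0.14. Gbp2 had means of 5.91 and 7.48 FPKM and Gbp7 of 4.50 and 5.39 FPKM (limma adjusted p = 0.079 and 0.20). In all 3 every shGDF11 library was above every control, as in 23.7% of all tested genes. They lie close together on chromosome 3, and 12.7% of the 50-base words of Gbp7 transcripts also occur in other genes, mainly Gm43802.

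The members also differed from library to library within a group. The median coefficient of variation of the 49 genes was 10.7% among control and 5.13% among shGDF11 libraries, against 11.1% and 7.32% over all tested genes. Relative to the control mean, the median member lay at 0.25, 0.30 and 0.25 on the log2 scale in shGDF11 libraries 1 to 3, while the median of all tested genes lay at 0.01, 0.01 and 0.00. In the controls the median member lay at -0.03, 0.04 and -0.00. Control replicate 1 was the lowest control for 23 of the 49 genes, and shGDF11 replicate 2 was the highest of the 6 libraries for 19. Leaving out shGDF11 replicate 1, 2 or 3 left 15 members called higher each time.

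**Figure D4:**
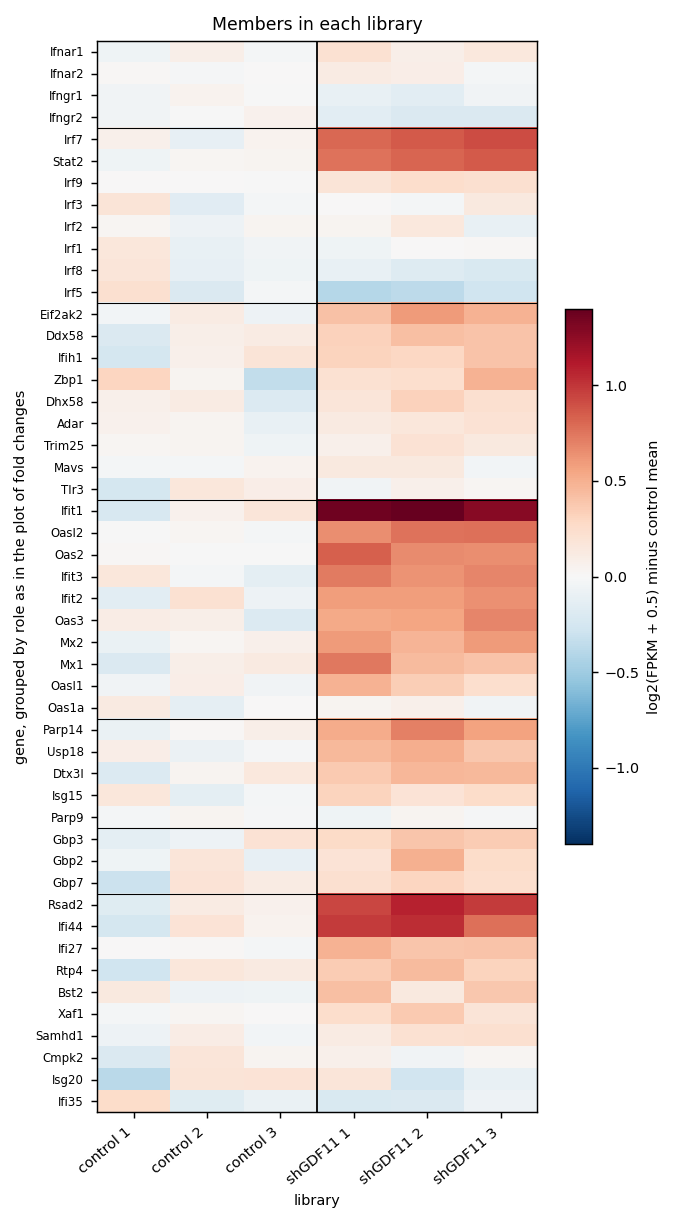
Colour shows log2(FPKM + 0.5) minus the control mean for each member (rows, grouped by role) in each library (columns). The rises are red in all 3 shGDF11 columns, deepest in Ifit1, Rsad2 and Ifi44, but so are uncalled members such as Rtp4 and Ifih1. The receptor rows at the top stay pale, and control replicate 1 is bluer than the other controls in rows such as Isg20 and Gbp7.

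Interferon transcripts themselves were scarce. Of 21 interferon genes listed (alpha, beta, gamma, lambda and others), 3 had any read, and no library held more than 4 reads of any of them. The reads were of Ifnz, Ifnab and Ifna16, and summed over all interferon genes they numbered 0, 0 and 7 in control and 5, 1 and 4 in shGDF11 libraries. Ifnb1 and Ifng had 0 reads in all 6 libraries. A count of 0 allows up to 3 reads, or about 0.18 to 0.191 FPKM for a transcript of 1 kb, by counting error alone.

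The other genes of the pathway were taken from lists drawn up for this description. Their counts stand beside the 14.4% of all tested genes called higher and the 13.1% called lower. Of 26 tested kinases, STATs and regulators, 9 rose and 1 fell, and the median change was 0.08 on the log2 scale. Jak1, the kinase shared by type I and type II receptors, rose from 15.6 ± 0.769 to 28.2 ± 1.21 FPKM (mean ± SD, n = 3 in each group; limma adjusted p = 0.00043). Ptpn11, a phosphatase, rose from 22.4 to 31.4 FPKM. Uba7, the enzyme that activates ISG15 for conjugation, rose from 5.25 to 8.43 FPKM, and its partner Ube2l6 from 54.1 to 75.8 FPKM (limma adjusted p = 0.0025 and 0.0083). The 1 that fell was Pias4, a SUMO ligase, from 12.9 to 7.44 FPKM (limma adjusted p = 0.019). The list had 0 falls with no filter on low values or when control replicate 2, or replicate 2 or 3 of shGDF11, was left out, and 2 when control replicate 3 was.

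Of 33 tested partners of the sensors, 3 rose and 6 fell, and the median change was -0.10 on the log2 scale. These shares, 9.09% and 18.2%, were near the 14.4% and 13.1% of all tested genes. Zc3hav1, the antiviral zinc finger protein ZAP, rose from 13.3 to 17.2 FPKM (limma adjusted p = 0.011). Ripk3, a kinase of necroptosis, fell from 22.6 to 13.4 FPKM, Nlrx1, a mitochondrial restraint on MAVS signalling, from 2.49 to 1.27 FPKM, and the bacterial lipoprotein receptor Tlr2 from 3.39 to 1.78 FPKM (limma adjusted p = 0.0012, 0.0042 and 0.012). The 3 rises were 1 without shGDF11 replicate 1 or 3 and 0 without shGDF11 replicate 2. The 6 falls were 3 without any 1 shGDF11 library and 3 after rescaling to TPM.

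Of a list of 63 further interferon-stimulated genes, 55 were tested, 21 rose and 5 fell, and the median change was 0.18 on the log2 scale. The smallest p belonged to Lgals3bp, a secreted glycoprotein, which rose from 90.9 to 131.9 FPKM, and to Igtp, an immunity-related GTPase, which rose from 41.6 to 62.7 FPKM (limma adjusted p = 0.00092 and 0.0010). Phf11d rose from 7.42 to 13.6 FPKM and Apol9b from 8.36 to 15.4 FPKM (limma adjusted p = 0.0012 and 0.0017). Irgm1, Irgm2 and Iigp1, relatives of Igtp named after their values were seen, also rose. The spans of Igtp (58199556 to 58207591) and Irgm2 (58199618 to 58222782) overlap on the plus strand of chromosome 11. The rises of Igtp and Irgm2 may therefore not be independent. At a mean of at least 5 FPKM, where fewer of these genes were tested, 13 rose. The 5 falls were 2 or 3 without any 1 shGDF11 library, 3 with no filter, and 1 after rescaling to TPM.

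**Figure D5:**
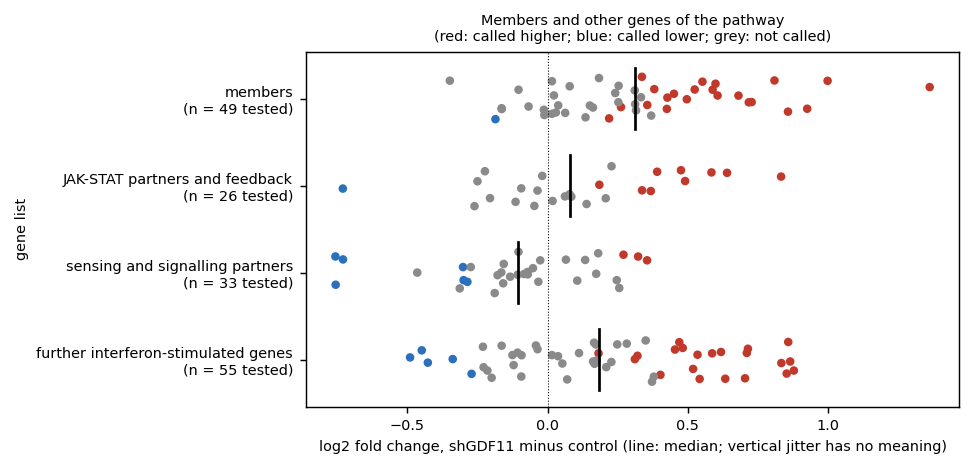
Log2 fold change (x axis, shGDF11 minus control) of every tested gene of the 49 members and of the 3 other lists (rows), with the list's median as a black line. Red points were called higher and blue points lower. The medians are 0.31 for the members, 0.08 for JAK-STAT partners, -0.10 for sensing partners and 0.18 for the further interferon-stimulated genes.

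Interferon-stimulated genes are also expressed by other cells of the heart, and in bulk samples fewer cells of a type cannot be told apart from less RNA per cell. The marker counts that follow stand beside 14.4% of all tested genes called higher and 13.1% called lower. Of 12 macrophage markers, 10 were tested, 4 fell and 0 rose. Their summed level was 167 to 191 FPKM in control and 129 to 142 FPKM in shGDF11 libraries. Lyz2 made up most of that sum, at means of 114 and 85.3 FPKM, and Csf1r and Adgre1 were not called. Of 8 endothelial markers, 5 fell and 0 rose, with sums of 68.8 to 74.7 and 48.6 to 51.9 FPKM. Of 8 fibroblast markers, 2 rose, with sums of 291 to 346 and 368 to 386 FPKM. Of 7 smooth muscle and pericyte markers, 5 fell, with sums of 1013 to 1090 and 405 to 410.4 FPKM. Acta2 made up most of that sum, at means of 993 and 370.3 FPKM, while Pdgfrb and Rgs5 were not called (limma log2 fold change 0.06 and 0.01). The cardiomyocyte markers summed to 7884 to 8115 and 6464 to 6755 FPKM. Actc1 was the largest part of that sum, at means of 4187 and 2766 FPKM. Of the 8 cardiomyocyte markers, 2 rose (Myl2 and Tnni3) and 4 fell, Actc1 among them. The part of these cells in the members' changes was not tested. Of 9 plasmacytoid dendritic cell markers outside the members, 1 rose, Cox6a2, which is also a gene of heart muscle. It set their sum, which was 131 to 144 FPKM in control and 264 to 290 FPKM in shGDF11 libraries, and the defining marker Siglech had 0 reads in all 6 libraries. The 10 T and NK cell markers summed to at most 4.34 FPKM and the 8 neutrophil markers to at most 1.55 FPKM in any library, and the 1 tested gene of each list was not called.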

How the data were processed

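The authors deposited FPKM values per gene for 6 libraries, with gene length in bases. Per the submitters' processing notes, which give no role or order, GRCm38 and mm10 were used with featureCounts 1.5.0-p3, HISAT2 2.0.5 and CASAVA 1.8. For the annotation release and the strand setting the entry is: not given in the sources used here. Reads of a gene and of an overlapping gene on the other strand may therefore be mixed. FPKM times length gave whole reads (100% of positive values within 0.05 of a whole number). Genes were tested with limma 3.58.1 (R 4.3.3) on log2(FPKM + 0.5), two-sided, at a mean of at least 0.5 FPKM, with a variance trend, after a check on simulated data. As an alternative, those reads were fitted with limma voom. Members and lists were chosen with earlier results of these data known. Values in each library were given for called members among the 20 with the smallest p and for a panel of 18 receptors, factors, sensors and ISG15 genes, and of each other list up to 4 genes with the smallest p were named. Others were named after their values were seen. The values of 1 gene of the other lists are not reported here. Coordinates of all 49 members equalled those of GENCODE M21 (GRCm38). Shared sequence was counted as 50-base words of its transcripts, and promoters came from RefSeq (GRCm38.p6). Intervals and floors cover counting error only.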

Additional observations from a re-analysis of the deposited data

How the results depend on the processing

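Over 18 alternatives (pseudocount, filter, scaling, variance model, library weights, voom, replicate block, omission of each library), 15 to 26 members were called higher, and no called member turned its sign. Members called lower (1, Ifngr2) became 0 with no filter, after rescaling to TPM, with no variance trend and with the replicate block, and 0 to 1 with 1 library left out. Uncalled genes whose sign turned in some alternative numbered 8 (Parp9, Irf1, Irf2, Irf3, Isg20, Oas1a, Tlr3 and Cmpk2). Over all genes, the 2227 higher were 1474 at a mean of at least 5 FPKM, and the 2026 lower were 1324 after rescaling to TPM. With 1 library left out they ranged from 1263 to 2252 and from 1083 to 1986, with 1414, 1263 and 1363 higher and 1308, 1083 and 1172 lower without shGDF11 replicate 1, 2 or 3. JAK-STAT falls were 0 with no filter and 0 to 2 with 1 library left out. Rises among sensing partners were 0 to 3 and falls 3 to 7 with 1 library left out, and 3 fell after rescaling to TPM and with the replicate block. Further interferon-stimulated genes had 13 rises under the 5 FPKM filter. Falls in that list were 3 with no filter, 1 after rescaling to TPM, 3 with the replicate block, and 2 to 6 with 1 library left out. The cause of these shifts was not tested, except that a stricter filter tests fewer genes. Same-numbered libraries did not deviate together (r = 0.02, 0.01 and -0.05 over tested genes for numbers 1 to 3). With the replicate number as a block, 18 members rose, 16 of them among the 22, against 10.7% of all tested genes (1655 higher and 1568 lower). With matches on 1 strand only, 14.6% of member promoter windows and 1.74% of all windows held the response element letters. Depth limits the members with few reads, such as Oas3 (23 to 89 per library), Irf5 (33 to 61), Oas2 (52 to 125) and Isg20 (54 to 92).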

Other observations

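The sensor ZBP1 is known to act through the kinases RIPK1 and RIPK3 on MLKL, the executor of necroptosis, and these genes did not move together. Ripk3 was at 24.4, 21.5 and 21.8 FPKM in control and 14.1, 12.4 and 13.8 FPKM in shGDF11 libraries, and Mlkl at 5.31, 6.36 and 4.98 FPKM and at 3.73, 3.82 and 4.20 FPKM. Both fell (limma adjusted p = 0.0012 and 0.019) and their groups did not overlap. Ripk1 had means of 3.13 and 3.30 FPKM and Zbp1 2.08 and 2.66 FPKM, and neither was called (limma adjusted p = 0.58 and 0.23). The genes were put together after their values were seen.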
